A study of Homo sapiens with 3 samples.

Results

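The G2 and mitosis genes were 41 genes that a dividing cell transcribes before and during mitosis, chosen by name, and they were read here across the 3 arrays of the series. All 41 had at least 1 probe set that carried their gene alone and was bright enough to keep, among 12321 tested genes in all. Of their 77 probe sets, 67 were kept, and 24 of the genes rested on 1 probe set. The cells were HCT-116, a human colorectal cancer line, in 3 states: SCD1-WT cells treated with DMSO for 24 h, SCD1-WT cells given T-3764518, an inhibitor of stearoyl-CoA desaturase-1 (SCD1), at 100 nM for 24 h, and SCD1-KO cells. The labels give the SCD1-KO array no vehicle and no time, and the study's methods give DMSO and 24 h, as they give the compound's name and dose. SCD1-KO cells were grown from clones of CRISPR-Cas9 edited cells, so a clone and the loss of SCD1 cannot be told apart. The study asked how colorectal cancer cells withstand the loss of SCD1 activity. Each state had 1 array, so differences between states have no replicate check and no p-values are given.

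The signal is the MAS5 value that the authors deposited for each probe set of the Human Genome U133 Plus 2.0 Array, on a linear scale. A gene's level is the geometric mean signal of its kept probe sets, and its log2 ratio is the median over those probe sets, so the ratio of the levels can differ from the ratio given. A gene is called at 2-fold. The error given is the SD between probe sets of the same gene at a similar signal, which does not cover differences between cultures. Among the G2 and mitosis genes it ran from 0.23 to 0.45 on the log2 scale with T-3764518 and from 0.23 to 0.46 in SCD1-KO cells. SCD, the targeted gene, had levels of 2907, 14919 and 5506 on the DMSO, T-3764518 and SCD1-KO arrays, and its mRNA does not check the knockout, as the deleted part is not placed on the probe sets. The epithelial markers EPCAM, CDH1, KRT8, KRT18 and KRT19 had their brightest probe set at 1285 or above on every array, and CDX2 and VIL1, markers of intestinal cells, were at or under 115. Against DMSO, EPCAM and CDH1 had log2 ratios of -1.30 and -1.48 for SCD1-KO. Among markers of other cell types, PTPRC, COL3A1, ALB and INS had no kept probe set, CD3E and PECAM1 were at or under 253, and the fibroblast collagen gene COL1A1 was at 1089.7 to 1409. The part of these markers in the results was not tested. For RNA quality, the 3′ probe set of ACTB was 1.30, 1.36 and 1.54 times its 5′ probe set on the DMSO, T-3764518 and SCD1-KO arrays, whose part was not tested either.

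Genes of G2 and mitosis are transcribed in waves, low in G1 and high from late S phase to mitosis. CDK1 bound to cyclin A or B drives entry into mitosis, kinesin motors and their partners build the spindle, kinetochores hold chromosomes to it, and the spindle checkpoint restrains the anaphase-promoting complex until every chromosome is attached. That complex then marks securin and cyclin B for destruction, and the central spindle directs cytokinesis. Many of these promoters carry a CHR (cell cycle genes homology region), which is bound through LIN54 by the MuvB complexes that repress the genes in G1 and activate them in G2, and CCAAT boxes, which are bound by NF-Y.

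The promoter letters were read for the 35 of 41 genes that had an entry among RefSeq promoter windows of GRCh38.p14, each with 250 bases before and 50 bases from the transcription start. AURKA, BIRC5, FOXM1, TPX2, TTK and UBE2C were not matched. The letters searched were TTTGAA and TTCGAA for the CHR and CCAAT for the NF-Y box, on both strands. A CHR match lay in a window of 27 of the 35 genes (77.1%), against 19.5% of 27305 genes with a window, and a CCAAT match in 29 genes (82.9%) against 39.7%. Both were present in a window of 23 genes (65.7%), against 7.85% of all genes. Genes of G2 and mitosis outside the 41, 53 with a window, held CHR letters in 35 (66.0%), CCAAT in 37 (69.8%) and both in 27 (50.9%). Genes of S phase and replication, 41 with a window, held CHR letters in 3 (7.32%) and CCAAT in 24 (58.5%). A match is a description of the letters and not a site. The stretches shown run from 120 bases before the start to base 10 of the transcript, and capitals mark the CHR and CCAAT letters on either strand. The first set is of genes that lay below DMSO by more than 1 SD under both perturbations:
CDK1, chr10:60778358-60778487, plus strand: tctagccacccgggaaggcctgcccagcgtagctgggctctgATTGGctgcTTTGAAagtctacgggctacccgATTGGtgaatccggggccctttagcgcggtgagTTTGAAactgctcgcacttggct
KIF11, chr10:92593010-92593139, plus strand: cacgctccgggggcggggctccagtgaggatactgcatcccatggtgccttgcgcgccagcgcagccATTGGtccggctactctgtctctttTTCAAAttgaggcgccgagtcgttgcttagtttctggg
SPC25, chr2:168890421-168890550, minus strand: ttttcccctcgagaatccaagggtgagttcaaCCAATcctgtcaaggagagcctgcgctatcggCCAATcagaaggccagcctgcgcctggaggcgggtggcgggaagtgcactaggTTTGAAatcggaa

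The second set is of genes with the same letters whose ratios were within 1 SD of 0, with KIF18A, whose ratios had opposite signs:
CCNB2, chr15:59105026-59105155, plus strand: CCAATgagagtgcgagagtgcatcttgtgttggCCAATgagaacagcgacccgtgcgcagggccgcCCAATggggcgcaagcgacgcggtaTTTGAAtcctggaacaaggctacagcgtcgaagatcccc
CDC20, chr1:43358861-43358990, plus strand: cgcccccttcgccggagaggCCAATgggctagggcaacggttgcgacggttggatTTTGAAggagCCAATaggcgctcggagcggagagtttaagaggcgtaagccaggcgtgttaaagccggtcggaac
PRC1, chr15:90994526-90994655, minus strand: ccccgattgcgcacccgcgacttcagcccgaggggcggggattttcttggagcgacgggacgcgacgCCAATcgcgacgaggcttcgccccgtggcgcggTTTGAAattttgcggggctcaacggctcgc
KIF18A, chr11:28108147-28108276, minus strand: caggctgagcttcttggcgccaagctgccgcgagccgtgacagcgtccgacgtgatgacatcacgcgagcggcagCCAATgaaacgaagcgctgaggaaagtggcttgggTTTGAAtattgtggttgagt

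CDK1 had 2 CHR matches in its stretch, starting 69 and 13 bases before the start, and 2 CCAAT matches, at 78 and 46 bases. CCNB2 had 3 CCAAT matches, 120, 87 and 54 bases before the start, and its CHR match stood 29 bases before it. In these stretches the other genes had 1 CHR match each, from 65 bases before the start in CDC20 to 3 bases before it in SPC25. The 27 genes with CHR letters had a median log2 ratio of -0.30 with T-3764518 and -0.26 for SCD1-KO, and the 8 without had -0.19 and -0.29. Among those 8 were CCNA2, CCNB1, AURKB and NEK2.

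**Figure D1:**
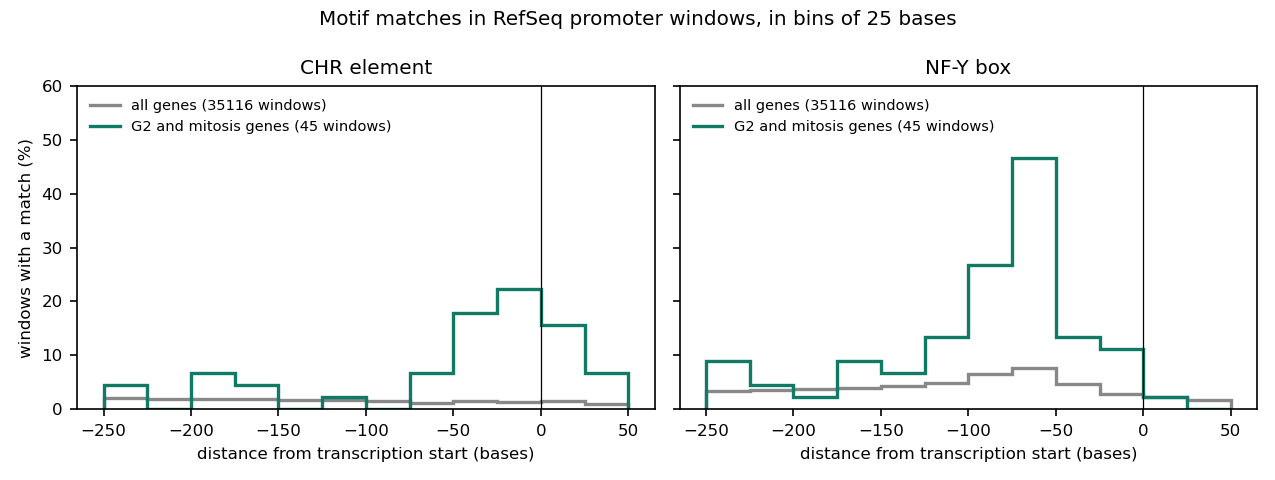
Share of promoter windows with a match starting in each bin of 25 bases (vertical axis, percent) against the distance from the transcription start (horizontal axis, bases), for the CHR element and for the NF-Y box, whose letters are CCAAT, in 45 windows of G2 and mitosis genes (green) and in all 35116 windows (grey). CHR matches were most frequent in the last 25 bases before the start (22.2% of windows against 1.26%) and NF-Y matches from 75 to 50 bases before it (46.7% against 7.62%).

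None of the 41 genes reached 2-fold in either direction under either perturbation, where 3.3% of all tested genes were lower and 2.18% higher with T-3764518, and 3.93% lower and 3.12% higher in SCD1-KO cells. The genes lay slightly below their DMSO level instead. With T-3764518, 36 of 41 (87.8%) were below 0 on the log2 scale, beside 59.0% of all tested genes, and in SCD1-KO cells 32 of 41 (78.0%) beside 51.1%. These counts depended on the scaling: with the arrays scaled to 1 median signal, 20 of 41 (48.8%) were below 0 with T-3764518, beside 31.0% of all tested genes, and 28 (68.3%) beside 37.7% for SCD1-KO. Their median was -0.27 with T-3764518 and -0.26 for SCD1-KO, or 83.1% and 83.6% of the DMSO level, against medians of -0.087 and -0.011 over all tested genes. On that scaling the median with T-3764518 was 0.012, on the other side of 0, but that of all tested genes was then 0.19, since this scaling raises every log2 ratio to DMSO by 0.28 with T-3764518 and by 0.14 for SCD1-KO. As deposited, each array had a mean signal of 500 without its brightest and dimmest 2%, while the medians were 68.8, 56.7 and 62.4. By quantile normalization or by lowess correction, 35 of the 41 genes were below 0 with T-3764518 and 33 for SCD1-KO. The medians of all tested genes then ran from -0.026 to -0.0022. Below the median of all tested genes lay 34 of the 41 with T-3764518 and 32 for SCD1-KO. In bulk RNA, fewer cells in G2 and mitosis and less mRNA per cell cannot be told apart. Both ratios share the DMSO array, so a high or low DMSO signal moves them together.

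Against the SD between probe sets, 17 genes lay below DMSO by more than 1 SD with T-3764518 and 0 above it, or 41.5% of the genes, where 23.0% of all tested genes lay below and 13.4% above. In SCD1-KO cells 18 lay below (43.9%) and 3 above (7.32%), where 20.0% of all tested genes lay below and 18.8% above. At 1.5-fold, 5 of 41 were lower with T-3764518 and 0 higher, beside 12.3% and 6.62% of all tested genes, and in SCD1-KO cells 5 were lower and 1 higher, beside 11.4% and 9.95%. The share lower at 1.5-fold (12.2% in each) was thus near that of all tested genes. On the scaling to 1 median, 6 genes lay below DMSO by more than 1 SD with T-3764518 (14.6%, beside 8.11% of all tested genes) and 3 above (7.32%, beside 33.1%). The 6 were ANLN, AURKB, CDK1, KIF11, SPC25 and TOP2A, and the 3 were CDC20, CDC25C and ECT2. For SCD1-KO the counts were then 9 of 41 below, beside 13.0% of all tested genes, and 5 above, beside 28.3%. SPC25 alone was still lower at 1.5-fold with T-3764518, and NEK2 and TTK for SCD1-KO, where CENPF and KIF18A were higher.

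**Figure D2:**
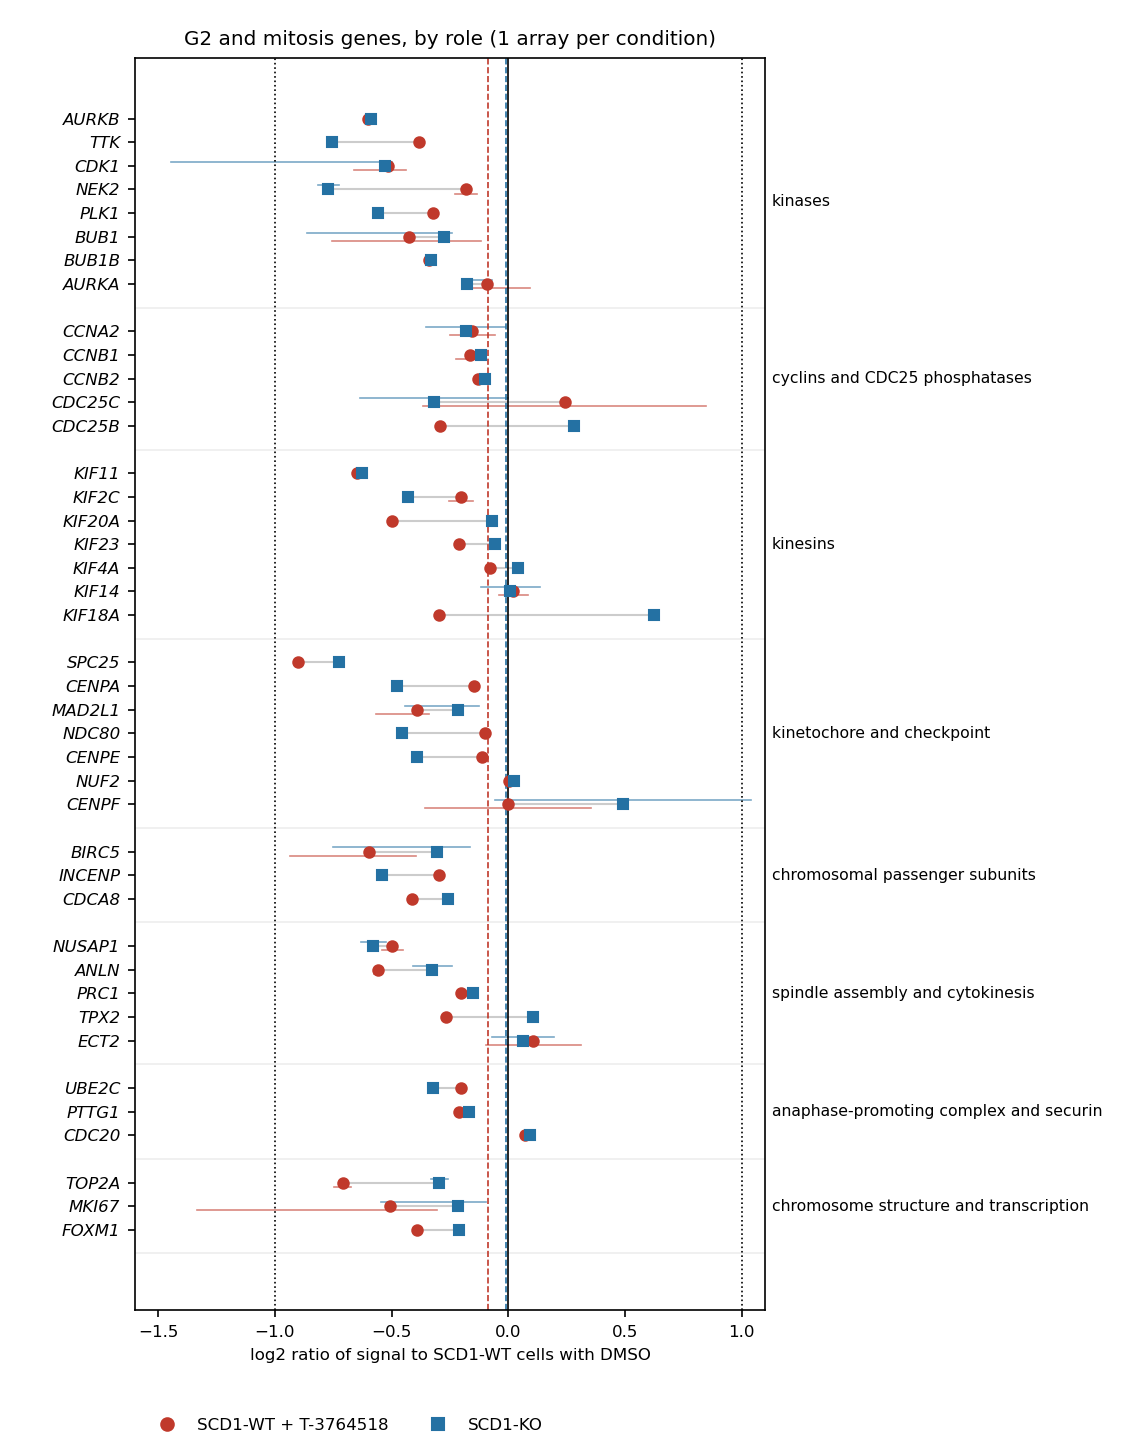
Log2 ratio of signal to SCD1-WT cells with DMSO (horizontal axis) for each of the 41 genes, by role, with T-3764518 (red circles) and in SCD1-KO cells (blue squares), from 1 array per condition. Thin lines span the kept probe sets of a gene, grey lines join its 2 ratios, dashed lines are the medians of all tested genes and dotted lines 2-fold. No gene value reached 2-fold. SPC25 lay lowest with T-3764518 (-0.90) and KIF18A highest in SCD1-KO cells (0.62). Scaling to 1 median would raise the red circles by 0.28 and the blue squares by 0.14, to medians of 0.012 and -0.12. The dashed lines would then stand at 0.19 and 0.13.

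The kinases had the lowest median of the 8 roles for SCD1-KO. All 8 were below DMSO under both perturbations, though on the scaling to 1 median 6 were with T-3764518, without AURKA and NEK2, and 8 for SCD1-KO. The kinases had a median log2 ratio of -0.36 with T-3764518, where the range was -0.60 to -0.090, and of -0.54 in SCD1-KO cells, where it was -0.77 to -0.18. CDK1, the kinase that drives mitotic entry, had a level of 2515, 1739 and 1496 on the DMSO, T-3764518 and SCD1-KO arrays. Both perturbed arrays were below the control, with log2 ratios of -0.51 and -0.53 against an SD of 0.23 in each. A dim probe set of CDK1 gave -1.45 in SCD1-KO cells, while the other 3 ran from -0.56 to -0.50, so its SCD1-KO level is lower than its median ratio gives. AURKB, the kinase of the chromosomal passenger complex, had signals of 1283, 845 and 853, and its log2 ratios of -0.60 and -0.59 were past 1.5-fold with an SD of 0.32 and 0.30. PLK1, which acts in mitotic entry and spindle assembly, had signals of 216, 173 and 147, and its ratios of -0.32 and -0.56 stood beside an SD of 0.45 and 0.46 at this low signal. AURKA, the spindle pole kinase, had the ratio nearest 0 of the kinases under both perturbations. Its levels were 883, 853 and 798, with log2 ratios of -0.090 and -0.18, within the SD.

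TTK and NEK2 differed between the perturbed arrays by more than the SD, which CDK1 and AURKB did not. TTK, the kinase that starts checkpoint signalling at kinetochores, had signals of 1780.2, 1367 and 1055, and log2 ratios of -0.38 with T-3764518 and -0.75 for SCD1-KO. NEK2, which separates centrosomes, had levels of 1594, 1405 and 934, with ratios of -0.18 and -0.77. For both, the SCD1-KO array was the lowest of the 3. BUB1B, which holds back the anaphase-promoting complex, was at -0.34 and -0.33, and BUB1, a kinase of the same checkpoint, at -0.42 and -0.28, with BUB1 probe sets from -0.75 to -0.12 with T-3764518.

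The cyclins were close to their DMSO level. CCNB1, the main mitotic cyclin, had levels of 2710.1, 2419 and 2496 on the DMSO, T-3764518 and SCD1-KO arrays, and CCNB2 had 4141, 3785 and 3867. CCNA2, the cyclin of S phase and G2, had 1439, 1292.5 and 1267. Across the 3 cyclins the log2 ratios ran from -0.16 to -0.13 with T-3764518 and from -0.18 to -0.099 in SCD1-KO cells, all within the SD of 0.23 to 0.32. The brighter probe set of CCNA2 alone gave -0.25 with T-3764518 and -0.35 for SCD1-KO, the second past the SD of 0.30. Its other probe set gave -0.057 and -0.014. The phosphatases CDC25B and CDC25C, which remove the inhibitory phosphates from CDK1, had ratios of opposite sign in the 2 perturbations. CDC25B had signals of 4529, 3696 and 5508, the highest in SCD1-KO cells, with ratios of -0.29 and 0.28. CDC25C had ratios of 0.24 and -0.32, but its 2 kept probe sets gave -0.36 and 0.85 with T-3764518, so its direction rested on the probe set.

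The kinesins spread widely around a median of -0.21 with T-3764518 and -0.059 for SCD1-KO. KIF11, the motor that pushes spindle poles apart, had signals of 839.6, 536 and 543, and its log2 ratios of -0.65 and -0.63 were past 1.5-fold, with an SD of 0.36 and 0.37. KIF18A, which dampens chromosome movement at the plate, had signals of 1184, 963 and 1823 on the DMSO, T-3764518 and SCD1-KO arrays. The SCD1-KO array was the highest of the 3, with a log2 ratio of 0.62 against -0.30 with T-3764518, from 1 probe set. KIF20A, a motor of the central spindle, was at -0.50 with T-3764518 and -0.072 for SCD1-KO, and KIF2C, which removes tubulin from microtubule ends at kinetochores, at -0.20 and -0.43. KIF23, the motor subunit of centralspindlin, was at -0.21 and -0.059. KIF4A and KIF14, motors of the central spindle, were within 0.079 of 0 in both.

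Among the 7 kinetochore and checkpoint genes the median was -0.11 with T-3764518 and -0.39 for SCD1-KO, and the members of a single complex did not share a ratio. NDC80, NUF2 and SPC25 encode 3 subunits of the NDC80 complex, which grips microtubules. SPC25 had signals of 718, 384.5 and 435, and log2 ratios of -0.90 and -0.72 with an SD of 0.36 and 0.37, and with T-3764518 it lay lowest of the 41 genes. NDC80 had signals of 1398, 1304 and 1020.3, so only the SCD1-KO array stood apart from the control by more than the SD, at -0.45. NUF2 had 1004, 1006 and 1021, with ratios of 0.0022 and 0.024. CENPA, the histone that marks centromeres, was at -0.15 and -0.48, and CENPE, a kinetochore motor, at -0.11 and -0.39. MAD2L1, which carries the checkpoint signal, was at -0.39 and -0.22. CENPF, a large kinetochore protein, had levels of 757, 756 and 1064.5 and ratios of -0.0019 and 0.49, but its brightest probe set alone gave -0.36 and -0.057, and the other 0.36 and 1.04.

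The 3 subunits that hold AURKB in the chromosomal passenger complex were below DMSO under both perturbations. BIRC5, which encodes survivin, had levels of 1263, 815 and 969, with log2 ratios of -0.60 and -0.31 and 4 probe sets from -0.93 to -0.39 with T-3764518. CDCA8, which encodes borealin, had signals of 1140.5, 857 and 954 and ratios of -0.41 and -0.26. INCENP, the scaffold of the complex, was at -0.30 and -0.54. With AURKB at -0.60 and -0.59, none of the 4 genes of this complex was at or above its DMSO signal. Of all tested genes, 59.0% were below 0 with T-3764518 and 51.1% for SCD1-KO. INCENP with T-3764518 (SD 0.45) and CDCA8 for SCD1-KO (SD 0.30) were within the SD. On the scaling to 1 median the 4 genes stayed below 0 in both ratios, but AURKB alone by more than 1 SD.

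Genes of spindle assembly and cytokinesis had medians of -0.27 and -0.15. NUSAP1, which bundles spindle microtubules, had levels of 2600.4, 1842 and 1742, with log2 ratios of -0.50 and -0.58 against an SD of 0.23, and both of its probe sets were near these values. ANLN, the anillin of the contractile ring, had 2911.5, 1977.5 and 2324, and was lowest with T-3764518 at -0.56, beside -0.33 in SCD1-KO cells. ECT2, which activates RhoA at the cleavage site, had 978, 1054 and 1022, with ratios of 0.11 and 0.062, within the SD of 0.32 and 0.30, but its brightest probe set alone gave -0.098 and -0.072, so its direction rested on the probe set. PRC1, which bundles the central spindle, was at -0.20 and -0.15. TPX2, which activates AURKA on the spindle, was at -0.27 with T-3764518 and 0.11 for SCD1-KO.

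Of the genes that act at the exit from mitosis, UBE2C for SCD1-KO was past its SD. CDC20, which activates the anaphase-promoting complex, had signals of 3395, 3568 and 3621 with log2 ratios of 0.072 and 0.093, above the control on both arrays and within the SD. UBE2C, the ubiquitin-conjugating enzyme of that complex, had 5361.5, 4664 and 4285, with ratios of -0.20 and -0.32 against an SD of 0.23. PTTG1, the securin that restrains separase, was at -0.21 and -0.17. TOP2A, MKI67 and FOXM1 each had a lower signal with T-3764518 than on the SCD1-KO array, but by more than the SD in TOP2A alone. TOP2A, the topoisomerase that untangles sister chromatids, had levels of 2335, 1428 and 1903, with ratios of -0.71 and -0.30. Its 2 kept probe sets gave -0.75 and -0.67 with T-3764518. MKI67, which encodes the marker Ki-67, had 933, 589.7 and 775, with ratios of -0.51 and -0.22, and its 4 probe sets ran from -1.33 to -0.30 with T-3764518. FOXM1, a transcription factor of G2 genes, had 675, 514 and 583, with ratios of -0.39 and -0.21.

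**Figure D3:**
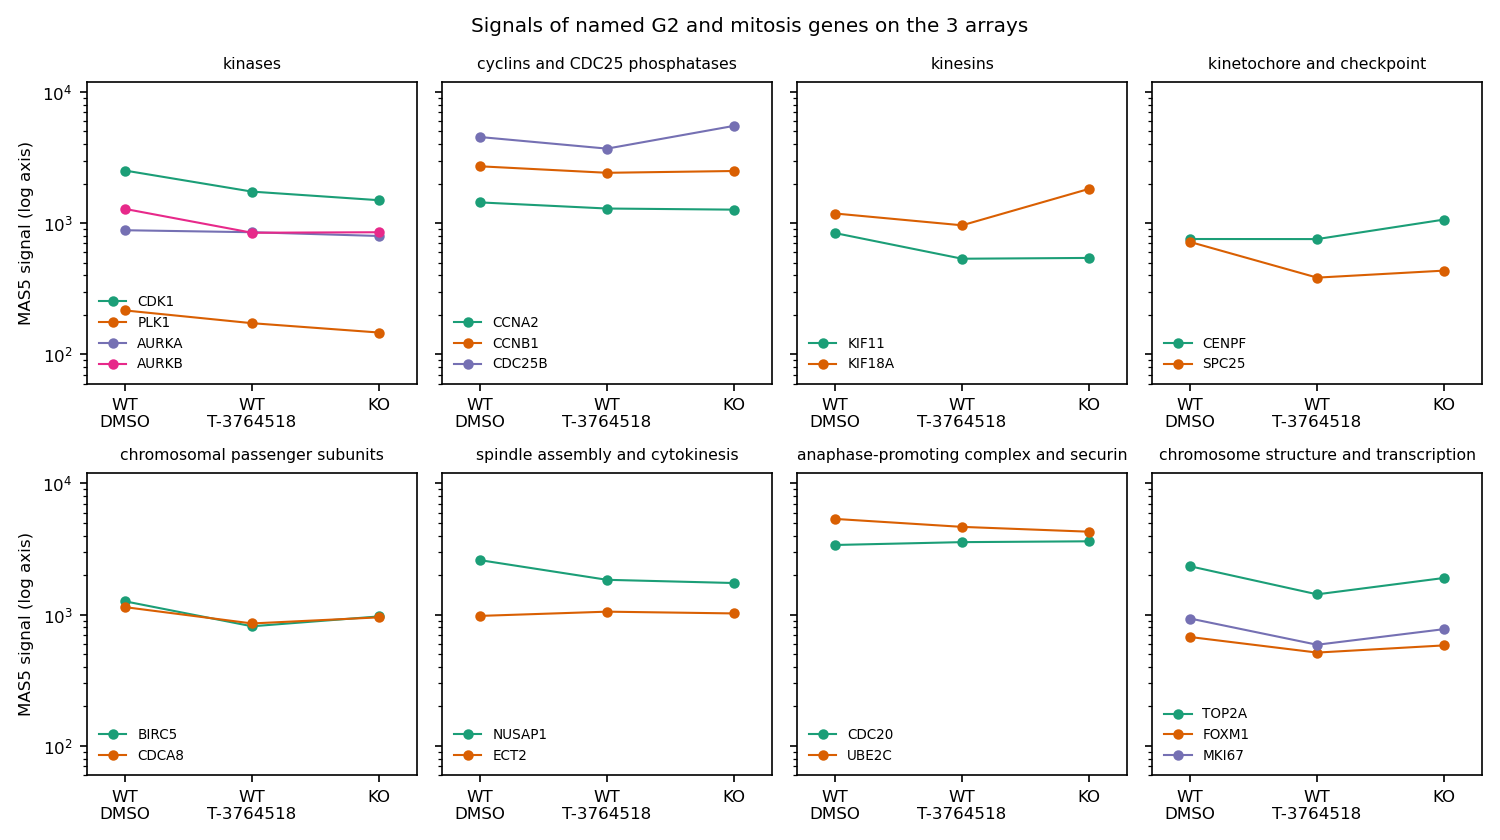
MAS5 signals (vertical log axis, geometric mean of the kept probe sets) of the named genes of each role on the 3 arrays: SCD1-WT cells with DMSO, SCD1-WT cells with T-3764518 and SCD1-KO cells, 1 array each, so there is no error bar. KIF11 was at 839.6 with DMSO and 536 and 543 on the others, while CCNB1 lay between 2419 and 2710.1 and KIF18A was highest in SCD1-KO cells at 1823.

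The 4 roles set side by side thus had medians of -0.36 and -0.54 for kinases, -0.21 and -0.059 for kinesins, -0.11 and -0.39 for kinetochore and checkpoint genes, and -0.27 and -0.15 for spindle assembly and cytokinesis genes, with T-3764518 and for SCD1-KO. On the scaling to 1 median, the median of the kinases was below 0 in both ratios (-0.082 and -0.40). That of the kinesins (0.069 and 0.081) was above 0 in both, and those of kinetochore (0.17) and spindle (0.012) genes were above 0 with T-3764518. All tested genes then had medians of 0.19 and 0.13, above those of the 4 roles, and of -0.087 and -0.011 without this scaling. The ranges of the 4 roles overlapped in both ratios, and no difference between roles was tested. Several genes have more than 1 role. Counting CENPE as a kinesin and moving KIF2C and the cytokinesis motors to their other roles gave the kinesins a median of -0.39 in SCD1-KO cells. This left KIF11 (-0.63), CENPE and KIF18A (0.62) as kinesins, so the median was the ratio of CENPE alone.

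The ratio of the T-3764518 array to the SCD1-KO array does not use the DMSO array. Over the 41 genes its median was -0.021, beside -0.057 for all tested genes, and on the scaling to 1 median 0.12 beside 0.081. None reached 2-fold, where 4.52% of all tested genes were lower and 3.1% higher, 24 were below 0 (58.5% beside 55.2%), and 39 of the 41 were within 1.5-fold. KIF18A was the 1 gene lower at 1.5-fold (log2 ratio -0.92, SD 0.33), and NEK2 the 1 gene higher (0.59, SD 0.33), while 14.2% of all tested genes were lower and 9.08% higher at 1.5-fold. By more than 1 SD, 7 genes were lower with T-3764518 (17.1%, beside 22.6% of all tested genes) and 4 higher (9.76%, beside 16.7%). Beside KIF18A the first were CDC25B, CENPF, KIF20A, TOP2A, TPX2 and ANLN, and beside NEK2 the second were CDC25C, TTK and NDC80. CDK1, AURKB, KIF11, BUB1B and CDC20 were within 0.036 of 0. These counts are without the scaling to 1 median, and those past 1 SD were not made again on it. On it 14 of the 41 genes were below 0, where the median of all tested genes was 0.081. By quantile normalization or by lowess correction, 21 of the 41 were below 0.

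**Figure D4:**
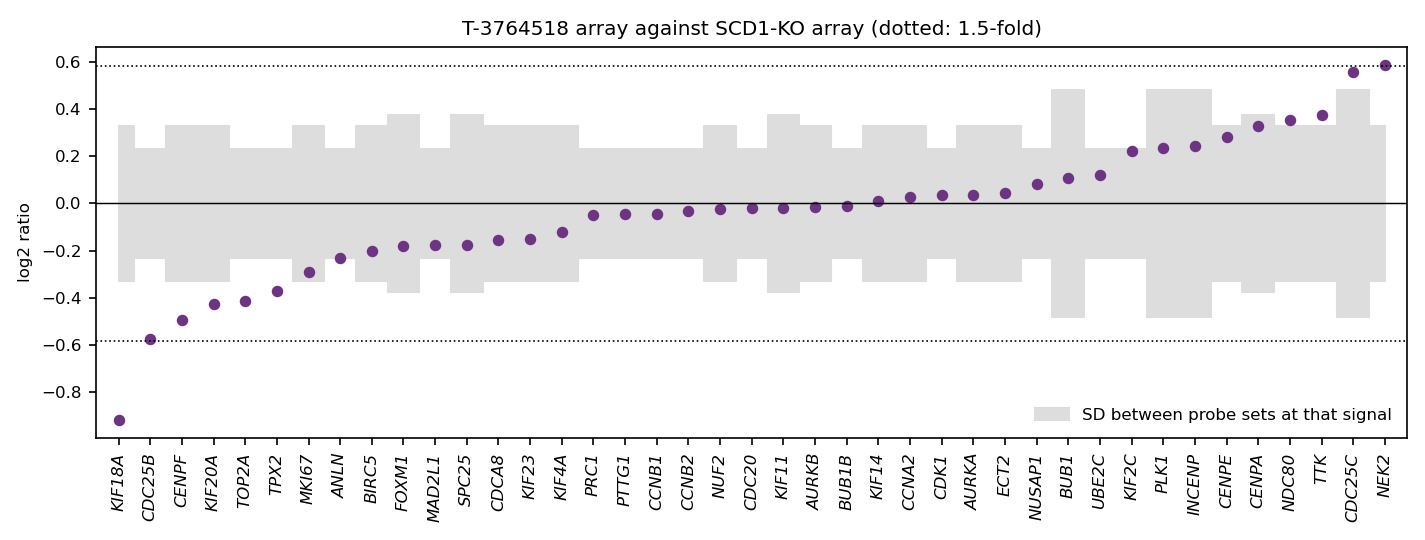
Log2 ratio of the T-3764518 array to the SCD1-KO array (vertical axis) for each of the 41 genes in order, with a grey band of ± 1 SD between probe sets at each gene's signal and dotted lines at 1.5-fold. Within the band lie 30 of the 41 genes, KIF18A stands lowest at -0.92 and NEK2 highest at 0.59, and the median is -0.021, or 0.12 when the arrays are scaled to 1 median.

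Other genes of G2 and mitosis, 66 tested of 68 listed, also had medians below that of all tested genes. With T-3764518, 3 were 2-fold lower and 0 higher, and in SCD1-KO cells 0 in either direction, with medians of -0.33 and -0.21. The 3 of 66 are 4.55%, near the 3.3% of all tested genes lower at 2-fold. They were ZWINT, a kinetochore protein, at 4401, 1914 and 3821 (log2 ratio -1.20 with T-3764518), CENPM at 487, 213 and 416 (-1.20) and CENPU at 496, 241 and 413 (-1.15), both subunits of the inner kinetochore. In SCD1-KO cells the log2 ratios of these genes were -0.20, -0.23 and -0.41. At 1.5-fold, 16 of the 66 were lower with T-3764518 (24.2%, beside 12.3% of all tested genes) and 1 was higher. For SCD1-KO, 9 of the 66 were lower at 1.5-fold (13.6%, beside 11.4% of all tested genes) and 0 higher. The genes of S phase and replication stood lower with T-3764518. Of 45 tested, 15 were 2-fold lower (33.3%, beside 3.3% of all tested genes) and 34 were 1.5-fold lower (75.6%, beside 12.3%), and the median was -0.87, against -0.27 for the G2 and mitosis genes. In SCD1-KO cells 2 of the 45 were 2-fold lower (4.44%, near the 3.93% of all tested genes), ORC1 at 2.03-fold and PRIM1 at 2.01-fold. At 1.5-fold, 11 were lower (24.4%, beside 11.4% of all tested genes), and the median was -0.34, against -0.26 for the G2 and mitosis genes. CCNE2, a cyclin of S-phase entry, had levels of 617, 148 and 479, and GINS2, a subunit of the replicative helicase, 1668, 442.5 and 1159.5. The MCM2 subunit of that helicase had 3288, 1005 and 1733. E2F1, a transcription factor of S-phase genes, had a log2 ratio of -1.98 with T-3764518, from probe sets at -2.99 and -0.96. The difference between the lists was not tested, since there is 1 array per condition. Of the housekeeping genes, 8 were tested and none reached 2-fold, with medians of -0.053 and -0.057.

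**Figure D5:**
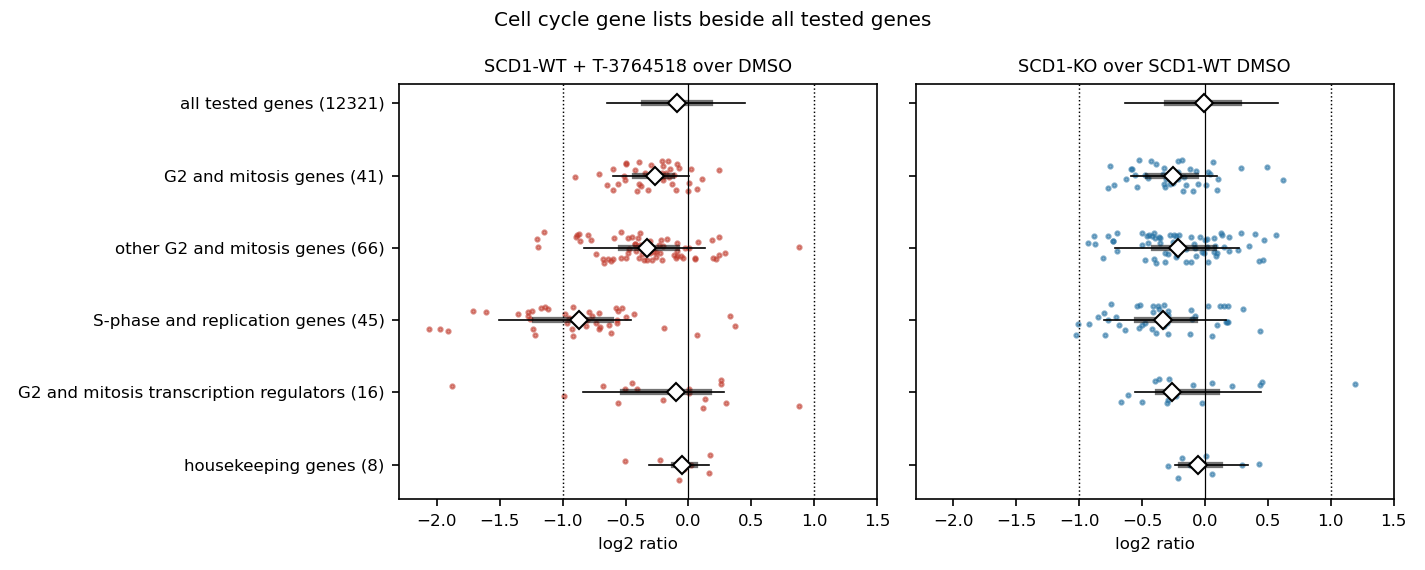
Log2 ratios (horizontal axis) of cell cycle gene lists, with the number of genes tested, beside all tested genes, with T-3764518 and for SCD1-KO. Points are genes, diamonds medians, thick bars the middle 50% and thin bars the span from percentile 10 to percentile 90, and dotted lines are 2-fold. The G2 and mitosis genes centre at -0.27 and -0.26 and the S-phase and replication genes at -0.87 and -0.34. Scaled to 1 median, the T-3764518 medians of these 2 lists are 0.012 and -0.59, beside 0.19 for all tested genes.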

How the data were processed

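The series holds 3 Human Genome U133 Plus 2.0 arrays of total RNA from HCT-116 cells, 1 per condition. The authors deposited MAS5 signal intensity values on a linear scale for 54675 probe sets, as the submitters' processing notes name the tool, its version being not given in the sources used here. Precision is limited by the number of arrays. Python 3.11.15, numpy 2.4.6, pandas 2.3.3, statsmodels 0.14.6 and matplotlib 3.10.9 were used. Gene names come from the platform annotation, which lists 1 symbol for 41097 probe sets, several for 1801 and none for 11777, and 41043 of the single symbols matched RefSeq for GRCh38.p14. Kept probe sets had a log2 signal, averaged over the arrays, that reached percentile 50 (a signal of 56.6). Genes took the median ratio over kept probe sets and were called at 2-fold. The SD between probe sets was pooled over genes in 5 bins of signal. The steps were tested on simulated data. Alternatives were quantile normalization, scaling to 1 median, lowess correction, other filters, an offset, a floor, other summaries of probe sets, other thresholds and second roles. Promoter windows came from RefSeq.

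Named genes were those called, the highest and lowest of each role by the mean of both ratios, and CDK1, CCNB1, PLK1, FOXM1, MKI67 and TOP2A. Of each other list, the called genes were named, up to 4 per ratio and direction by size, with MYBL2, LIN54 and CDKN1A. Further members were added so that all 41 have values. The members, lists and roles were chosen with earlier results of these data known. The genes whose promoters are shown were chosen after their ratios were seen. A marker among those listed is not reported here.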

Additional observations from a re-analysis of the deposited data

How the results depend on the processing

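No G2 and mitosis gene was called with T-3764518 under any change of normalization, filter, offset, floor or probe set, and in SCD1-KO cells 1 was lower without the filter on low signals (AURKB, at -1.45, through a second probe set with signals of 36.1, 14.1 and 7.26). At 1.5-fold the counts were 5 lower with T-3764518, and 5 lower and 1 higher in SCD1-KO cells, and at 3-fold or with every probe set past 2-fold they were 0. Scaling to 1 median moved most medians: with T-3764518 to 0.012 for all G2 and mitosis genes, -0.082 for kinases, 0.069 for kinesins, 0.17 for kinetochore and checkpoint genes and 0.012 for spindle assembly and cytokinesis genes; in SCD1-KO cells to -0.12 for all of them and -0.011 for spindle assembly and cytokinesis genes; and to 0.12 for T-3764518 over SCD1-KO. The median of all tested genes moved with them, to 0.19, 0.13 and 0.081, as this scaling adds 0.28 with T-3764518 and 0.14 for SCD1-KO to every ratio to DMSO. Relative to all tested genes, the G2 and mitosis genes lay at -0.23 to -0.17 with T-3764518 and at -0.38 to -0.19 in SCD1-KO cells under the 10 alternatives. Without probe sets marked _s_at or _x_at, which left 27 of the genes, the median in SCD1-KO cells was -0.41. Of the spindle assembly and cytokinesis genes, NUSAP1 and ANLN alone were then left, with medians of -0.51 with T-3764518 and -0.47 for SCD1-KO. TPX2, PRC1 and ECT2 had dropped out, so these medians are not of the same genes as before. With second roles, the kinesins were KIF11, CENPE and KIF18A, and their median of -0.39 in SCD1-KO cells was the ratio of CENPE. Of 382 values of single named genes, 16 moved by more than the SD between probe sets, 7 of them with the scaling. No paired analysis was possible because each condition had 1 array, and leaving out a replicate was not possible for the same reason.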

Other observations

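Of 16 tested genes that regulate transcription in G2 and mitosis, 1 was 2-fold lower with T-3764518 (6.25%, beside 3.3% of all tested genes) and 1 was 2-fold higher in SCD1-KO cells (6.25%, beside 3.12%), with list medians of -0.098 and -0.26. MYBL2, which encodes the B-MYB protein that joins the MuvB complex in S phase, had signals of 513, 139.6 and 397, with log2 ratios of -1.88 with T-3764518 and -0.37 for SCD1-KO. CDKN1A, which encodes the CDK inhibitor p21, had 4163, 7659.9 and 9531.5, with ratios of 0.88 and 1.19, so that both perturbed arrays were above the control. LIN54, the subunit that contacts the CHR, had 159, 116 and 112, with ratios of -0.45 and -0.50. Those ratios rested on 1 probe set, dimmer than that of PLK1, whose SD was 0.45 and 0.46. The ratios of MYBL2 and CDKN1A also rested on 1 probe set each. The relation of these regulators to the G2 and mitosis genes was not tested.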
